A study of Mus musculus with 12 samples.

Results

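The genes described here were 9 members of the fibroblast growth factor (FGF) family, taken from a list of names out of 24209 genes in the deposited tables. They were the secreted ligands Fgf1, Fgf2, Fgf9 and Fgf10, the receptors Fgfr1 and Fgfr2, and the intracellular factors Fgf12, Fgf13 and Fgf14. RefSeq, the transcript catalogue on which the reads were counted, lists 18 entries for them, and each gene was read both by entry and as the sum of its entries. Secreted FGFs bind receptor tyrosine kinases at the cell surface together with heparan sulfate chains, and the activated receptors signal through adaptors and the MAP kinase cascade. In the adult hippocampus this pathway is known for its effects on neural progenitors, astrocytes and synapses. The intracellular FGFs are not secreted and do not act through these receptors in the usual way; they are known as partners of voltage-gated sodium channels at the axon.

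All 12 mice were C57BL/6 males that received an AAV2/5 vector in both hippocampi at an age of 10 weeks, and tissue was taken 10 weeks later. Every vector carried GFP under a synapsin promoter, which is active in neurons. In the miR-9 experiment 3 miR-9sp mice (mouse 9, mouse 17 and mouse 23) carried a sponge against miR-9 behind GFP and 3 GFP Ctrl mice (mouse 2, mouse 8 and mouse 16) carried GFP only. In the miR-34 experiment 3 miR-34sp mice (mouse 3, mouse 13 and mouse 18) were compared with 3 GFP Ctrl mice of their own (mouse 4, mouse 8 and mouse 10). A sponge is a transcript with repeated, imperfectly matched binding sites that occupies a miRNA and so lowers its action on its usual targets. The titles of the GFP Ctrl mice 2, 8 and 16 do not name an experiment, and they were placed in the miR-9 experiment because each experiment had 3 GFP Ctrl mice. A mouse numbered 8 stands in both GFP Ctrl sets, and the labels do not say whether the numbers run across experiments.

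Libraries of the miR-34 experiment were smaller, with total counts of 11029604 to 16934133, than those of the miR-9 experiment, with 17279620 to 24428477. The labels call the material hippocampal neurons, but RNA came from whole hippocampi. Astrocyte markers summed to 2262 to 2623 reads per 1000000 counted reads (RPM) in the 12 mice, and neuron markers to 481 to 579. These sums do not show which cell type gave more RNA, since the lists differ in size and some neuron markers had few reads. Within the miR-34 experiment, Tubb3 and Snap25 had means of 4165 and 2368 reads, scaled to the average total of the experiment. Map2 and Syt1, also neuron markers, had 21.9 and 20.3. Choroid plexus markers, which belong to tissue beside the hippocampus, ranged from 20.5 to 2264 RPM. In bulk tissue, fewer cells of a type and less RNA per cell cannot be told apart.

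The sponges act on the miRNAs through the seed, bases 2 to 8 of the mature sequence, so these sequences and their matches in the family are shown first. The mature sequences are those of RefSeq (GRCm38.p6), with the seed in capitals. miR-9-5p has the same sequence from Mir9-1 (chr3:88215613-88215635, + strand), Mir9-2 (chr13:83738821-83738843, + strand) and Mir9-3 (chr7:79505279-79505301, + strand). miR-34a-5p comes from Mir34a (chr4:150068473-150068494, + strand) and miR-34b-5p from Mir34b (chr9:51103610-51103632, - strand), and they share their seed. The family also holds miR-34c-5p.
miR-9-5p: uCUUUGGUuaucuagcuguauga
miR-34a-5p: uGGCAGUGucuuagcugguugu
miR-34b-5p: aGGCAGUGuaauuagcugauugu

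A seed match is the heptamer complementary to the seed, ACCAAAG for miR-9 and CACTGCC for miR-34, searched on the transcript strand in the longest annotated 3′ UTR of each gene (GENCODE M1, mm9). A miR-9 match was found in 4 of the 9 members, Fgf9, Fgf10, Fgf12 and Fgf13, against 11.4% of the 19915 genes with an annotated 3′ UTR and 18.1% of the 8225 genes whose 3′ UTR was 1000 to 4000 bases long. A miR-34 match was found in 2 of the 9 members, Fgf9 and Fgfr1, against 14.0% of all genes and 22.2% of those in the same range of length. The 3′ UTRs of the members were 1388 to 3573 bases long except that of Fgf2, with 271 bases, which held neither heptamer. None of the 6 matches was followed by the A that makes an 8mer. The matches stand in capitals below, each within its 3′ UTR, and a match is a description of the letters and not evidence that the miRNA binds there.
Fgf9, miR-9 match (chr14:58729501-58729507, + strand): tgcagagtgtACCAAAGctaagcaatg
Fgf10, miR-9 match (chr13:119578630-119578636, + strand): catatgcacaACCAAAGgagctttggg
Fgf12, miR-9 match (chr16:28162316-28162322, - strand): agaaatttgaACCAAAGcttgcctgtt
Fgf13, miR-9 match (chrX:56316134-56316140, - strand): atccatattaACCAAAGgcagggttga
Fgf9, miR-34 match (chr14:58728849-58728855, + strand): ctcaagggaaCACTGCCtttccacagg
Fgfr1, miR-34 match (chr8:26684469-26684475, + strand): ttgttggacaCACTGCCtttctcctcc

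Among the secreted ligands, Fgf1 was the most abundant in all 12 mice. Levels between genes were compared as RPM per kilobase of transcript (RPKM), and only for the 4 members with a single RefSeq entry. Fgf1 (NM_010197), a ligand that can activate all FGF receptors, had a median of 22.2 RPKM with a range of 19.7 to 25.1. Fgf10 (NM_008002), known as a ligand of Fgfr2, had a median of 7.16 RPKM, and Fgf9 (NM_013518), a ligand made by neurons, had 6.94. These levels could not be ordered, since Fgf10 was the higher of the pair in 7 of 12 mice. Fgf2 (NM_008006), a growth factor for neural progenitors that is also known from astrocytes and from pyramidal cells of the CA2 field, had a median of 1.82 RPKM and a range of 1.08 to 2.71. It rested on 10 to 46 reads per mouse and on an entry of 695 bases, while the other ligands had 342 reads or more.

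**Figure D1:**
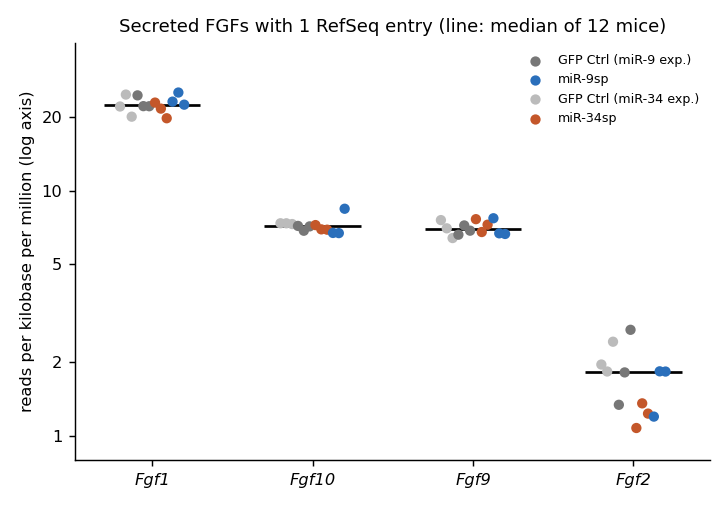
Levels of the 4 secreted FGFs with a single RefSeq entry, in RPKM on a log axis, with 1 point per mouse (n = 12) coloured by group and a line at the median. Fgf1 lay at 19.7 to 25.1 in every mouse, Fgf10 and Fgf9 overlapped, and Fgf2 lay lowest, at 1.08 to 2.71.

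Of the receptors, Fgfr1 was listed at 0 reads in every one of the 12 mice on each of its 3 entries (NM_010206, NM_001079908 and NM_001079909). Whether this value reflects the level of the receptor was not tested. Genes with several entries stood at 0 more often in these tables: 15.1% of the 16035 genes with 1 protein-coding entry had no read in any mouse, 21.2% of the 2514 with 2, 23.9% of the 1029 with 3 and 30.5% of the 823 with 4 or more. App, the amyloid precursor gene, which is strongly expressed in neurons, has 5 entries and was also listed at 0 in all 12 mice. Gapdh, a glycolytic enzyme of every cell, had 1 to 10 reads on 2 entries. Other genes with several entries had more, with 320 to 931 reads per mouse for Gnas on 9 and 780 to 2373 for Ncam1 on 3. Eif4g1, with 1 entry, had 0 to 2. These genes were chosen after the zeros of Fgfr1 had been seen. How reads shared by several entries were treated is not given in the sources used here, so levels of Fgfr2, Fgf12, Fgf13 and Fgf14 may also be understated, which was not tested.

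**Figure D2:**
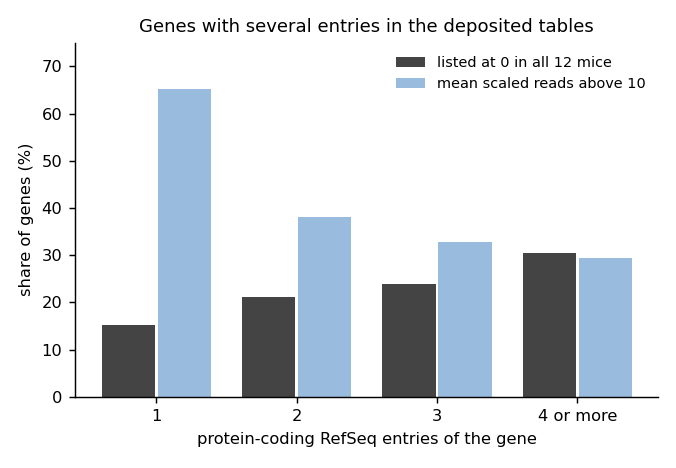
Share of genes, in percent, that had no read in any of the 12 mice (dark bars) or a mean of over 10 scaled reads (light bars), by the number of protein-coding RefSeq entries of the gene. The share at 0 went from 15.1% for 1 entry to 30.5% for 4 or more, and the share above 10 scaled reads from 65.2% to 29.3%.

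Fgfr2, the other receptor, was read at 4.05 to 5.95 RPM, on 48 to 121 reads per mouse. Entry NM_010207 held 96.6% to 100% of its reads in each mouse, and NM_201601 had 16 reads over all 12 mice.

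Of the intracellular FGFs, Fgf13, which is encoded on the X chromosome (chrX:56315322-56821248, - strand, mm9), gave 58.1 to 69.3 RPM, Fgf14 gave 10.4 to 13.4, and Fgf12 (chr16:28160206-28445313, - strand, mm9) gave 5.31 to 7.64. Mutations of FGF14 in people are known to cause a hereditary ataxia. In each of the 3 genes a single entry held most of the counted reads. How reads shared by entries were treated is not given. These shares, and those of Fgfr2, may therefore not be the shares of the transcripts, which was not tested. NM_010200 held 93.2% to 96.4% of the reads of Fgf13, NM_207667 held 98.0% to 99.6% of those of Fgf14 and NM_010199 held 70.6% to 85.2% of those of Fgf12. The minor entries NM_001276419 and NM_001276420 of Fgf12 had 2 to 27 reads per mouse, and NM_183064 was listed at 0 in all mice. NM_001290414 of Fgf13 had 29 to 94 reads, NM_001290415 had 1 read in all, and NM_010201 of Fgf14 had 26 in all.

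**Figure D3:**
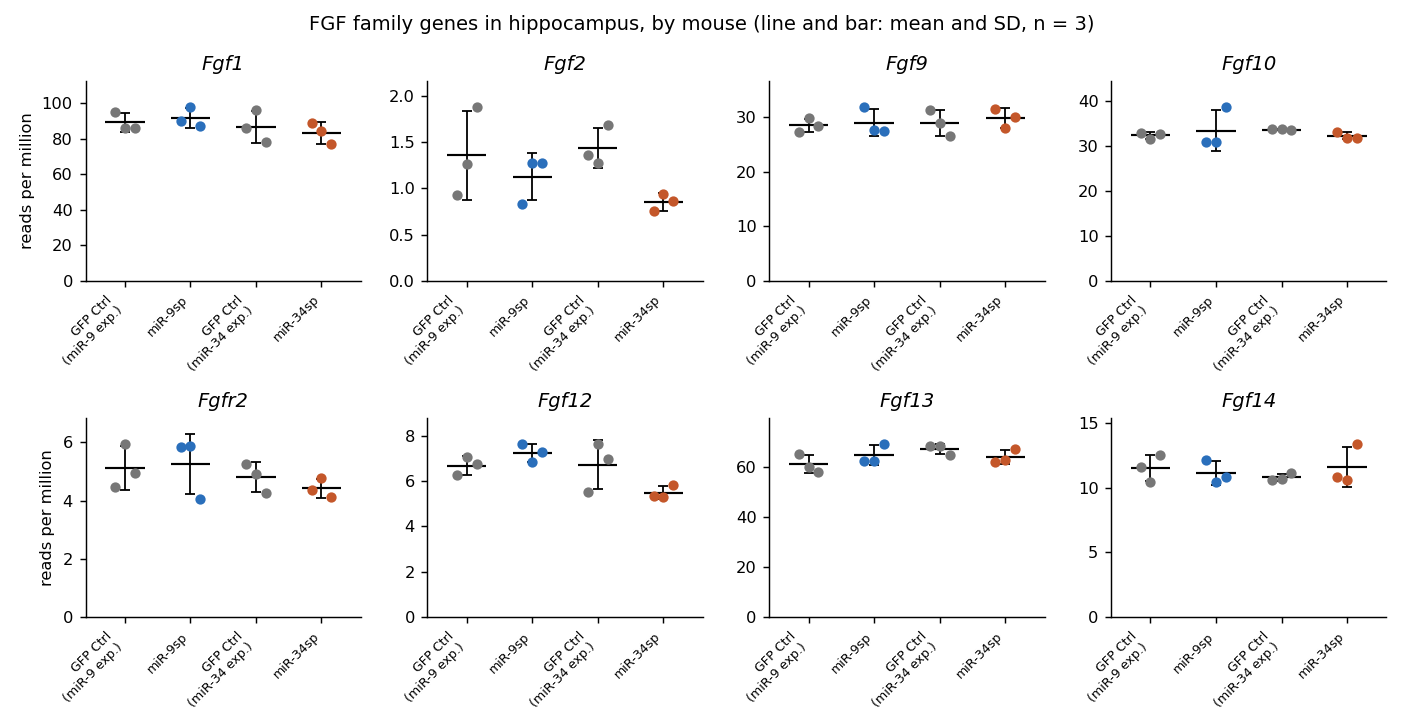
Levels of the 8 FGF genes with reads, in RPM on axes that start at 0, with 1 point per mouse in the 4 groups and the mean and SD (n = 3) as line and bar. The groups overlapped in most panels. For Fgf2 the miR-34sp mice lay at 0.750 to 0.945 and their GFP Ctrl mice at 1.27 to 1.68.

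The first comparison asked whether blocking miR-9 in neurons altered the family. No member was called after miR-9sp. The test was edgeR's quasi-likelihood test on read counts, with p-values adjusted by the Benjamini-Hochberg method over all genes with a mean above 10 scaled reads and a call at an adjusted p under 0.05. Of the 9 members 8 were tested, Fgfr1 being at 0, and 0 were called, against 0% of the 13045 genes tested. At an unadjusted p under 0.05 the count was also 0 of 8, against 4.73% of all genes, and DESeq2 gave 0 of 8 at both thresholds. The study's own criterion asks for p under 0.05, with no adjustment, in an unpaired two-sided test on scaled values and for group means that differ by more than 1.2-fold. By it, applied here to the sums over the entries of a gene, 0 of 8 members and 1.44% of all genes passed. The sponge and GFP Ctrl mice overlapped in each of the 8 members, whereas they did not overlap in 11.0% of all genes.

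Fgf13 had the smallest unadjusted p among the members after miR-9sp. Its miR-9sp mice read 62.6, 62.3 and 69.3 RPM (mouse 9, mouse 17 and mouse 23), and its GFP Ctrl mice 65.4, 60.2 and 58.1 (mouse 2, mouse 8 and mouse 16). The groups overlapped, and the log2 fold change was 0.10 (SE 0.06; edgeR adjusted p = 0.970). Fgf12, whose 3′ UTR also holds a miR-9 heptamer, read 7.61, 6.84 and 7.29 in the miR-9sp mice and 6.25, 7.05 and 6.75 in the GFP Ctrl mice, in the same order. Its log2 fold change was 0.14 (95% interval -0.09 to 0.37). The other genes with a miR-9 heptamer differed by less, with 0.05 for Fgf9 (95% interval -0.11 to 0.21) and 0.07 for Fgf10 (95% interval -0.14 to 0.27).

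The remaining members gave log2 fold changes after miR-9sp of 0.06 for Fgf1 (SE 0.05), 0.07 for Fgfr2 (SE 0.16), -0.03 for Fgf14 (SE 0.10) and -0.27 for Fgf2 (SE 0.30). The estimate was above 0 in 6 of 8 members, against 6488 of the 13045 genes tested. The median over the members was 0.06, where all genes tested had a median of -0.00. By RefSeq entry, 11 entries of the members were tested and 0 were called, against 0% of 13439 entries. The largest estimate was 0.41 (SE 0.25), for NM_001276420 of Fgf12, and the largest SE was 0.31, for NM_001276419 of the same gene, with an estimate of 0.21.

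The second comparison asked the same of miR-34. No member was called after miR-34sp by edgeR, with 0 of 8 tested members against 0.0640% of the 12492 genes tested. Those 8 genes were all lower in miR-34sp mice and 4 of them were choroid plexus markers. At an unadjusted p under 0.05 there was 1 of 8 members, Fgf2, against 6.43% of all genes, and DESeq2 gave 0 of 8 at both thresholds.

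Fgf2 gave the largest difference among the members. It read 0.750, 0.945 and 0.858 RPM in the miR-34sp mice (mouse 3, mouse 13 and mouse 18), on 10, 16 and 10 reads, and 1.36, 1.27 and 1.68 in the GFP Ctrl mice (mouse 4, mouse 8 and mouse 10), on 15, 15 and 23 reads. Every sponge mouse lay below every GFP Ctrl mouse. The log2 fold change was -0.76 (SE 0.28, 95% interval -1.36 to -0.15; edgeR adjusted p = 0.671), and the estimate stayed between -0.86 and -0.61 over fits that each left out 1 mouse. An exact permutation of 3 mice against 3 cannot go below p = 0.1.

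Fgf2 also passed the study's unadjusted criterion, as the 1 of 8 members to do so. Of all 12502 genes 152, or 1.22%, passed in the lower direction and 98 in the higher. With GFP Ctrl mouse 4 left out, Fgf12 passed as well and the count was 2. Groups that did not overlap, with the sponge mice lower, were seen in 2 of 8 members, Fgf2 and Fgf10, against 5.43% of all genes. With the sponge mice higher, they were seen in 0 of 8 members and 6.2% of all genes. In the miR-9 experiment Fgf2 read 0.834, 1.28 and 1.27 in the miR-9sp mice and 0.932, 1.26 and 1.88 in the GFP Ctrl mice, so its groups overlapped there.

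Fgf2 lies on chromosome 3 (chr3:37211441-37304299, + strand, mm9), and 13.4% of its exon bases are also exon bases of Nudt6 on the opposite strand, a gene known as its antisense partner. Nudt6 was listed at 0 in all 12 mice. Cetn4, a centrin gene whose exons overlap 3.05% of those bases on the opposite strand, read 8.62 to 9.97 RPM after miR-34sp and 9.52 to 10.5 in GFP Ctrl. Whether the counting used strand is not given in the sources used here, so reads of these genes may not be told apart.

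Summed markers of CA2 pyramidal cells were, like Fgf2, lower in every sponge mouse of the miR-34 experiment than in every GFP Ctrl mouse. Their sum was 190.4 to 213 RPM in miR-34sp mice and 226 to 228 in GFP Ctrl mice, and of the 3 markers 2 were tested and 0 were called. Rgs14 gave a log2 fold change of -0.34 (SE 0.06; edgeR adjusted p = 0.0995), Pcp4 gave -0.05 (SE 0.07), and Amigo2 did not pass the filter of that experiment. In GFP Ctrl mice, Rgs14 was lower in the miR-9 than in the miR-34 experiment (log2 difference -0.40, SE 0.06, edgeR adjusted p = 0.000559). Pcp4 gave 0.14 (SE 0.08) in that comparison. In the miR-9 experiment the CA2 sums overlapped, with 199 to 230 in sponge mice and 202 to 229 in GFP Ctrl mice. The markers went in opposite directions there, with 0.26 for Rgs14 (SE 0.07) and -0.23 for Pcp4 (SE 0.07; edgeR adjusted p = 0.970 for each), and Amigo2 gave 0.03 (SE 0.28). Astrocyte markers summed to 2339 to 2486 in miR-34sp mice against 2392 to 2623, which overlapped. Of 7 astrocyte markers 6 were tested, and all 6 estimates after miR-34sp were below 0, against 6285 of the 12492 genes tested. The median of the 6 was -0.08, with 0 calls. Gfap, the intermediate filament of astrocytes, gave -0.19 (SE 0.05; edgeR adjusted p = 0.464). In GFP Ctrl mice, Gfap was lower in the miR-9 than in the miR-34 experiment (log2 difference -0.22, SE 0.06, edgeR adjusted p = 0.0339). Choroid plexus sums, like the CA2 sums, did not overlap, with 32.7 to 111 RPM in miR-34sp mice and 598 to 2264 in GFP Ctrl mice. Meningeal fibroblast markers summed to 42.4 to 46.7 against 46.6 to 85.6, which overlapped. The part of any of these cell types in the values of Fgf2 was not tested.

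**Figure D4:**
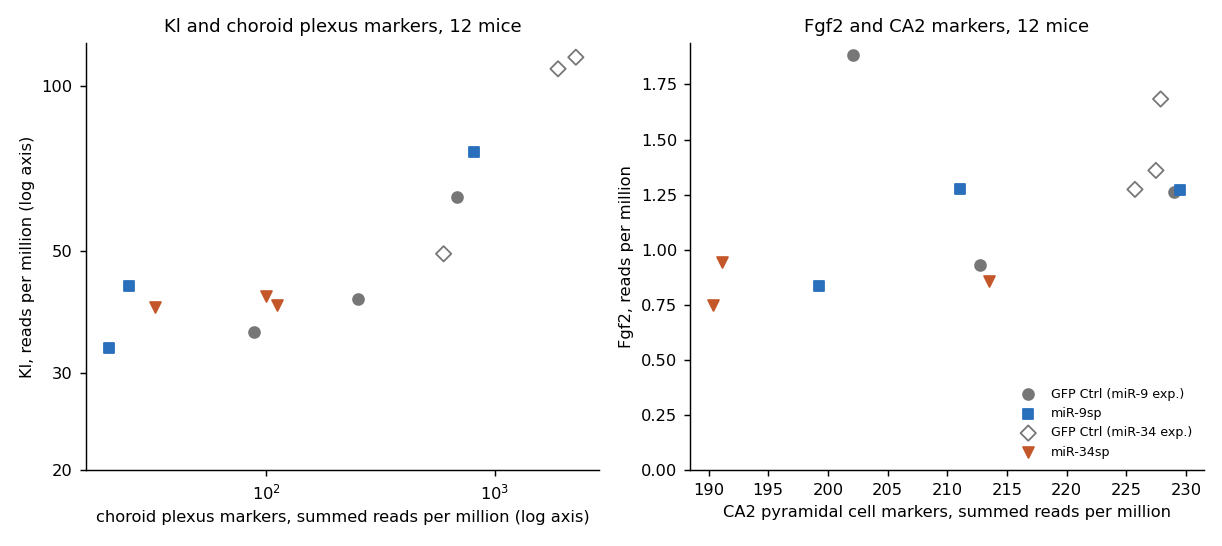
Left, Kl against the summed choroid plexus markers, both in RPM on log axes. Right, Fgf2 against the summed CA2 pyramidal cell markers in RPM, with 1 symbol per mouse and group. Kl was above 100 only in the 2 GFP Ctrl mice of the miR-34 experiment that had the highest choroid plexus sums, and the 3 miR-34sp mice were the lowest of their experiment for Fgf2 and for the CA2 sum.

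Fgf12 came next after miR-34sp. Its sponge mice read 5.32, 5.31 and 5.84 RPM and its GFP Ctrl mice 5.53, 7.64 and 6.96, in the order given above. GFP Ctrl mouse 4 fell among the sponge mice, and the log2 fold change was -0.30 (SE 0.15; edgeR adjusted p = 0.807). Its main entry NM_010199 gave -0.35 (SE 0.16) by itself.

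Fgf10 read 33.1, 31.8 and 31.7 RPM in the sponge mice and 33.6, 33.6 and 33.4 in the GFP Ctrl mice. The groups did not overlap, but the difference was small, with a log2 fold change of -0.06 (95% interval -0.19 to 0.06). Fgf9, the tested member whose 3′ UTR holds a miR-34 heptamer, gave 0.04 (95% interval -0.13 to 0.21), with sponge mice at 28.0 to 31.6 and GFP Ctrl mice at 26.5 to 31.4. The remaining estimates were -0.06 for Fgf1 (SE 0.07), -0.07 for Fgf13 (SE 0.05), 0.09 for Fgf14 (SE 0.12) and -0.11 for Fgfr2 (SE 0.16). The estimate was below 0 in 6 of 8 members, against 6285 of the 12492 genes tested. The median over the members was -0.07, against -0.00 over all genes. By RefSeq entry, 9 entries were tested and 0 were called, against 0.0313% of 12787 entries.

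**Figure D5:**
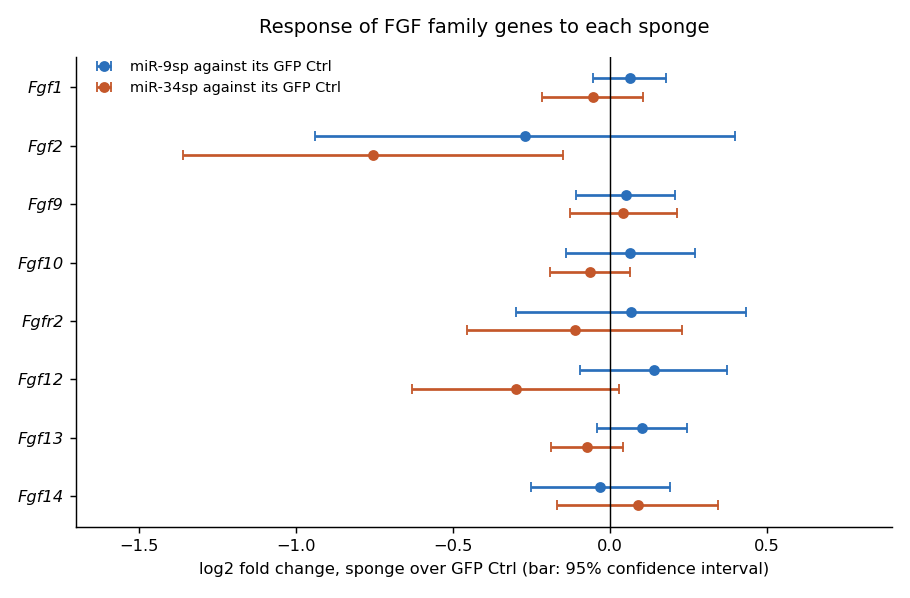
Log2 fold change of each FGF gene, sponge over GFP Ctrl of the same experiment, with the 95% confidence interval of the edgeR fit. Every interval after miR-9sp spans 0. After miR-34sp the interval of Fgf2 runs from -1.36 to -0.15 and the others span 0.

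The responses to the sponges were then compared with each other, as the difference between the miR-34sp and the miR-9sp effect in 1 model of all 12 mice. No member was called, 0 of 8, against 0% of 12832 genes. At an unadjusted p under 0.05 there was 1 of 8, Fgf12, against 6.18% of all genes. Its difference, the miR-34sp effect minus the miR-9sp effect, was -0.44 (SE 0.18; edgeR adjusted p = 0.758), and DESeq2 gave 0 of 8. For Fgf2 the difference was -0.49 with a 95% interval of -1.39 to 0.41, so its lower level after miR-34sp was not shown to be particular to that sponge.

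The GFP Ctrl sets of the experiments were compared to show how far levels differ where no sponge was present. Of all genes tested 25.2% were called, and 1 of 8 members was, Fgf13. It was lower in the miR-9 experiment, with 58.1 to 65.4 RPM, than in the miR-34 experiment, with 64.9 to 68.5, a log2 difference of -0.19 (SE 0.05; edgeR adjusted p = 0.0283). Its main entry NM_010200 read 54.5 to 61.0 against 62.2 to 65.8, and the minor entry NM_001290414 read 3.64 to 4.38 against 2.46 to 3.72. The call on Fgf13 was lost with total counts alone as the scale (-0.13, adjusted p = 0.0885) and without any 1 of 4 of the 6 mice (mouse 8 and mouse 16 of the miR-9 experiment, mouse 4 and mouse 8 of the miR-34 experiment, with adjusted p up to 0.113). Experiment, preparation and sequencing cannot be told apart here.

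The other genes of the pathway were read in 6 lists with 86 genes. After miR-9sp 68 of them were tested and 0 were called by edgeR or DESeq2, with 6 at an unadjusted p under 0.05 in edgeR (5 higher, 1 lower), where 4.73% of all genes were, and 5 in DESeq2. After miR-34sp 63 were tested and 0 were called by either tool, with 4 at an unadjusted p under 0.05 (2 higher, 2 lower) in each. In edgeR 6.43% of all genes were at that threshold, so the count of the pathway lay near the background.

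The partners of the intracellular FGFs, sodium channel subunits and proteins of the axon initial segment, held 3 of the 6 after miR-9sp, 3 of 12 tested, where 4.73% of all genes were at an unadjusted p under 0.05. Of these 12 tested partners 11 had an estimate above 0, against 6488 of the 13045 genes tested. The median log2 fold change of the partners was 0.07, where all genes had -0.00. Neuron markers were above 0 in 4 of 4 tested, CA1 pyramidal cell markers in 3 of 3 and granule cell markers in 3 of 4. CA2 markers were above 0 in 2 of 3, astrocyte markers in 3 of 6, and oligodendrocyte and microglia markers in 1 of 6 each. After miR-34sp the median of 11 tested partners was -0.01, and Scn3a, an alpha subunit, gave 0.11 (SE 0.04; edgeR adjusted p = 0.705). Between the GFP Ctrl sets Scn3a was lower in the miR-9 experiment (log2 difference -0.56, SE 0.04, edgeR adjusted p = 6.76e-06).

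Of the other receptors and klothos, Kl had the smallest p after miR-34sp. Kl encodes klotho, the co-receptor for Fgf23, and is known from the choroid plexus. It read 41.5, 39.9 and 39.7 RPM in the miR-34sp mice and 107, 113 and 49.5 in the GFP Ctrl mice. The groups did not overlap, and the log2 fold change was -1.15 (SE 0.23; edgeR adjusted p = 0.181). Over fits that each left out 1 mouse, the edgeR adjusted p ran from 5.61e-07, without GFP Ctrl mouse 10, to 0.733. The log2 fold change ran from -1.45 to -0.95 over these fits. With no filter on low counts the edgeR adjusted p was 2.62e-06. Kl also differed between the GFP Ctrl sets, where it was lower in the miR-9 experiment (log2 difference -0.99, SE 0.28; edgeR adjusted p = 0.0268).

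Choroid plexus markers were lower along with Kl. Of 8 markers 6 were tested and 4 (Ttr, Tmem72, Aqp1 and Kcnj13) were called lower after miR-34sp, while Folr1, which has 4 entries, was listed at 0 in all 12 mice. Their sum was 32.7 to 111 RPM in sponge mice and 598 to 2264 in GFP Ctrl mice. GFP Ctrl mouse 10 had the lowest sum of its group. The same 4 markers were also called between the GFP Ctrl sets, against 25.2% of all genes. They were lower in the miR-9 experiment, with log2 differences from -2.29 to -1.65. Choroid plexus sums of the GFP Ctrl mice there were 88.5 to 686 RPM. In the miR-9 experiment Kl read 33.3, 75.9 and 43.2 in the miR-9sp mice and 62.7, 35.6 and 41.0 in the GFP Ctrl mice, with a log2 fold change of 0.15 (SE 0.27), and sponge mouse 17, which had the highest Kl, had a choroid plexus sum of 813 where the other 2 sponge mice had 20.5 and 25.2. The part of choroid plexus tissue in the values of Kl was not tested. Fgfr3, a receptor known from astrocytes, had 7 to 25 reads per mouse over its 5 entries, and after miR-9sp its estimate was 0.33 (SE 0.26).

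The feedback inhibitors and target genes of the pathway, which are known to respond to receptor activity, gave 12 tested genes and 0 calls after either sponge. Between the GFP Ctrl sets 4 of the 12 were called, against 25.2% of all genes, with Spry2, Spred1 and Spred3 higher and Etv5 lower in the miR-9 experiment. Spry2, a Sprouty inhibitor of receptor signalling, read 65.8, 67.6 and 79.5 RPM in the miR-34sp mice and 59.3, 61.1 and 60.8 in the GFP Ctrl mice. The groups did not overlap, and the log2 fold change was 0.22 (SE 0.07; edgeR adjusted p = 0.565). Spry2 was also 0.32 higher in the GFP Ctrl mice of the miR-9 experiment than in those of the miR-34 experiment (log2, SE 0.05; edgeR adjusted p = 0.00166). Dusp6, a phosphatase of ERK, gave 0.14 (SE 0.09) after miR-34sp, Spry4, another Sprouty inhibitor, gave 0.03 (SE 0.08) and Etv5, a transcription factor induced by FGF signals, gave 0.05 (SE 0.04). After miR-9sp the smallest p in the list was that of Etv1, an ETS transcription factor, with -0.24 (SE 0.13), and Dusp6, Spry2, Spry4 and Etv5 lay between -0.05 and 0.07.

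The heparan sulfate and FGF-binding proteins held 20 tested genes of 23, with a median of -0.00 for the miR-9 sponge and of -0.02 for the miR-34 sponge. Flrt2, a membrane protein of the FLRT family, gave -0.10 (SE 0.05) after miR-9sp, and Sdc4, the heparan sulfate proteoglycan syndecan-4, gave -0.15 (SE 0.05; edgeR adjusted p = 0.604) after miR-34sp. Between the GFP Ctrl sets Sdc4 was lower in the miR-9 experiment (log2 difference -0.43, SE 0.05, edgeR adjusted p = 0.000126). Of the receptor adaptors and kinases 15 of 17 were tested. Gab1, a docking protein of receptor signalling, gave -0.16 (SE 0.05; edgeR adjusted p = 0.970) after miR-9sp.

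Of the other 15 FGF genes 5 passed the filter in the miR-9 experiment and 2 in the miR-34 experiment. Fgf16, a secreted ligand, had the smallest p in both, with -0.16 (SE 0.22) and -0.21 (SE 0.28). Fgf11, the remaining intracellular FGF, had 6 to 22 reads per mouse, all on NM_010198, and gave 0.02 (SE 0.30) after miR-9sp. It did not pass the filter in the miR-34 experiment.

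The genes whose level was most like that of Fgf13 over the 12 mice, as deviations from the mean of each experiment on a log2 scale, were Car4 (Pearson's r = 0.921), Slmap (r = 0.912) and Tafa1 (r = 0.903). Those most like Fgf2 were Ptpn1 (r = 0.842), Ptar1 (r = 0.816) and Snx27 (r = 0.815). They were the highest among the genes with over 100 reads on average in both experiments, and the values of a mouse share 1 library, so the correlations are a description.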

How the data were processed

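Hippocampal RNA of 12 mice was sequenced as 50 bp single end reads. The deposited values are raw counts of reads per RefSeq entry, made by the authors, beside the length of each entry in bases. Per the labels the processing notes name STAR and mm10, the methods name mm9, and the counting tool and its strand setting are not given in the sources used here. Entries were joined to symbols (98.7% of 32850), and 1.29% of reads fell on entries without one, each of which was kept as a gene of its own under its RefSeq name. Counts were summed per gene, scaled to the average total of the experiment for filtering, and tested with edgeR 4.0.16 (quasi-likelihood, TMM) on genes with a mean above 10 scaled reads, with Benjamini-Hochberg adjustment over all of them. DESeq2 1.42.0, other size factors, other filters, 1 model of all 12 mice and each mouse left out were tried as alternatives, and scripts were tested on simulated data. The study's criterion was applied to scaled gene sums, and the counts of genes that passed it here are larger than those the study reported. RPM use the total count of the mouse. PCR copies cannot be told apart, so intervals cover counting error and the spread between the mice, and 3 reads were taken as the smallest detectable count.

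The members and lists were chosen with earlier results of these data known. All members and their entries are named. Of the pathway, Fgf11, Fgfr3, Kl, Dusp6, Spry2, Spry4, Etv5, any called gene and the gene with the smallest p of each list and sponge comparison are named, with the 3 genes most like the leading member of each comparison. Folr1 and the other markers come from 14 marker lists. Some genes that this rule names are not reported here. Protein sequences were not analysed here.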

Additional observations from a re-analysis of the deposited data

How the results depend on the processing

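No member gene was called after either sponge or for the difference between the responses, and no RefSeq entry of a member after either sponge, in any alternative run: DESeq2, other size factors, total counts alone, no filter, a mean above 100 scaled reads (which Fgf2, Fgfr2 and Fgf12 in the miR-34 experiment, and Fgf2 and Fgfr2 for the difference, did not pass, nor Fgf2 in the miR-9 experiment), 1 model of all 12 mice (for the sponge effects), or each mouse left out. For the difference, entries were tested by edgeR with no alternative run. The member call between the GFP Ctrl sets went to 0 with total counts alone and to 0 to 1 with each mouse left out. The pathway genes called after miR-34sp went from 0 to 1, Kl, with no filter and to 0 to 1 with each mouse left out, and the members past the study's criterion after miR-34sp were 1 to 2. The cause was not tested. Estimates near 0 changed sign. Without a filter the difference between the responses was 0.0069 for Fgf9, and with total counts alone it was 0.019 for Fgf9, while the difference between the GFP Ctrl sets was 0.044 for Fgf1, and after miR-9sp the estimates were -0.0026 for Fgf11 and -0.0059 for Spry2.

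With each mouse left out, log2 fold changes after miR-9sp ran from -0.48 to 0.067 for Fgf2, -0.022 to 0.096 for Fgf9, -0.063 to 0.13 for Fgf10, -0.097 to 0.036 for Fgf14, -0.020 to 0.21 for Fgfr2, -0.19 to 0.16 for Dusp6, -0.097 to 0.019 for Etv5, -0.21 to 0.19 for Fgf11, -0.25 to 0.43 for Kl, -0.016 to 0.074 for Spry2 and -0.087 to 0.19 for Spry4. After miR-34sp they ran from -0.13 to 0.025 for Fgf1, -0.019 to 0.10 for Fgf9, -0.022 to 0.15 for Fgf14, -0.43 to 0.0081 for Fgf16 and -0.036 to 0.087 for Spry4. The difference between the responses ran from -0.072 to 0.063 for Fgf9, and that between the GFP Ctrl sets from -0.081 to 0.066 for Fgf1, -0.46 to 0.090 for Fgf2, -0.19 to 0.028 for Fgf12, -0.024 to 0.10 for Fgf14 and -0.072 to 0.13 for Fgfr2. No paired analysis was made, since sponge and GFP Ctrl mice were different animals and the labels give no pairs. Depth limits Fgf2 most: at 10 to 46 reads per mouse, its intervals were the widest of the members.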
